A study of Mus musculus with 8 samples.

Results

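MAP kinase phosphatases remove the activating phosphates from MAP kinases, and 10 genes of the dual-specificity phosphatase (Dusp) family that encode them were examined in embryonic mouse kidneys with and without Grb2 in the ureteric bud. The 10 genes were taken by name from 22180 genes measured, and all 10 had a probe set assigned to that gene alone. They comprise 4 nuclear inducible genes (Dusp1, Dusp2, Dusp4 and Dusp5), 3 cytoplasmic ERK-specific genes (Dusp6, Dusp7 and Dusp9) and 3 genes for phosphatases that prefer JNK and p38 (Dusp8, Dusp10 and Dusp16). Each array held RNA from the pooled left and right kidneys of 1 embryo at E14.5 (E, embryonic day), with 200 ng of total RNA amplified per array. Of the 8 embryos, 4 had the genotype Grb2 UB-cKO, a knockout limited to the ureteric bud (written Grb2_cKO), and 4 were wild-type controls. All were littermates. The sources used here give neither the driver of the deletion nor the alleles involved. The comparison asks how loss of Grb2 from the ureteric bud changes RNA levels in the kidney as a whole.

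GRB2 is an adaptor protein that couples activated receptor tyrosine kinases, such as RET in the ureteric bud, to RAS and the ERK cascade. MAP kinases are switched on by phosphorylation of a threonine and a tyrosine, and MAP kinase phosphatases switch them off by removing both. Several of these phosphatase genes are themselves transcribed in response to MAP kinase activity and so form negative feedback loops. Dusp6 is widely used as a readout of signalling from FGF receptors and RET through ERK in embryos.

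The promoters of Dusp6, Dusp5 and Dusp1 are shown because these members had the largest changes in RNA level among those with a match to a searched motif. RefSeq start sites on build GRCm38.p6 gave a window of 300 bases, 250 before the start and 50 after it, for 8 of the 10 genes. The windows of Dusp4 and Dusp9 were not analysed here. Both strands were searched for an ETS core (CGGAAG), an AP-1 site (TGANTCA) and a CRE core (TGACGT). The 250 bases before each start are printed 5′ to 3′ on the strand of the gene, with the matches in capitals. The Dusp6 stretch lies on the plus strand at chr10:99262981-99263230, the Dusp5 stretch on the plus strand at chr19:53528895-53529144 and the Dusp1 stretch on the minus strand at chr17:26508473-26508722.
Dusp6: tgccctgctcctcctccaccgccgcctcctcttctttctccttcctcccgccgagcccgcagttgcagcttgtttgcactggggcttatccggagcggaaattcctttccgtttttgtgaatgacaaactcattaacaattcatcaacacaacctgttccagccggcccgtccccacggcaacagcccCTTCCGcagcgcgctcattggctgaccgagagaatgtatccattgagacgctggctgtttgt
Dusp5: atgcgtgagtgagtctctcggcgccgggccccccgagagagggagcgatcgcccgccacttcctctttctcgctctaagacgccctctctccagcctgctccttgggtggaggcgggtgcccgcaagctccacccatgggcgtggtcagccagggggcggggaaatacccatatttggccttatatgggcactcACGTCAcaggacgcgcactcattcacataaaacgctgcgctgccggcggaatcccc
Dusp1: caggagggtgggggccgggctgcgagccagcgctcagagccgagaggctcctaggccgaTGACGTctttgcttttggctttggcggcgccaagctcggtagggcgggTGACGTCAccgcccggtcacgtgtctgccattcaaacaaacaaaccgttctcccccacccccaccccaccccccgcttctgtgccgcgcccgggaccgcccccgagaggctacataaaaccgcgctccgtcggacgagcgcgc

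Dusp6 held 1 ETS core, on the opposite strand, whose first base in the window lay at -62 from the start site. Dusp5 held 1 CRE core on the opposite strand at -56, and no ETS core in the window. Dusp1 held a CRE core at -191 and a pair of overlapping CRE cores, one on each strand, at -143 and -141. Dusp8 held 4 CRE cores in 2 such overlapping pairs, from -107 to -61. The windows of Dusp2, Dusp7, Dusp10 and Dusp16 held none of the searched motifs, and no member window held the AP-1 site. Among 32851 windows of the same length, 16.9% held the ETS core, 7.51% the CRE core and 7.81% the AP-1 site, against 1, 3 and 0 of the 8 member windows. The member windows had 57.3 to 78.7% G and C, all above the median of 52.7% over all windows, and the shares were not adjusted for this. A match is a run of letters, not a measured binding site.

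Values are log2 probe-set values as deposited. Differences are Grb2_cKO minus control on that scale, tested in limma with Benjamini-Hochberg adjustment over all 22180 genes and a threshold of 0.05. Levels of different probe sets are not comparable, so each gene is compared only with itself between groups. Array medians over all probe sets were 6.61 to 6.72. Grb2 was at 8.36, 8.17, 8.22 and 8.06 in the Grb2_cKO kidneys and 8.68, 8.65, 8.61 and 8.66 in controls, lower in all 4 (-0.45, SE 0.07, adjusted p = 0.0017). The kidney markers Pax2, Six2 and Calb1 stood at 10.52 ± 0.19, 11.42 ± 0.12 and 11.50 ± 0.14 in controls (SD, n = 4). Averaged over Uty, Kdm5d and Eif2s3y, Y-linked expression was 9.94 to 10.10 in the Grb2_cKO embryos and 9.94 in control replicate 3, but 4.09 to 4.24 in the other controls. Xist ran the other way, at 4.95 to 6.03 in the Grb2_cKO embryos and 5.39 in control replicate 3, but 12.22 to 12.79 in the other controls. By these genes the Grb2_cKO embryos and control replicate 3 read as male and the other controls as female. The groups differ in Y-linked expression, and so in sex, as well as genotype. Each of the 10 genes is therefore also given with this Y-linked average as a covariate and against control replicate 3 alone. Each gene list is given with the covariate. Among controls only replicate 3 shares the high Y-linked values of the Grb2_cKO embryos, so the covariate fit also rests mainly on that control. The fits are therefore nearly the same contrast and not separate checks. Grb2 itself stood at -0.40 with the covariate (SE 0.13, adjusted p = 0.10) and at -0.41 against control replicate 3 alone (SE 0.14, adjusted p = 0.164), past the threshold in neither.

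Of the 10 phosphatase genes, 4 fell (Dusp4, Dusp5, Dusp6 and Dusp9), 2 rose (Dusp1 and Dusp10) and 4 did not pass the threshold. Over all genes 28.1% passed, 13.7% higher and 14.3% lower. Of the calls over all genes 48.9% were higher, or 36.9% with each array centred on its median. The median log2 change of the 10 genes was -0.01, against 0.0058 for all genes. In size the falls and rises were unequal. The largest falls were -1.11 (Dusp6) and -1.09 (Dusp5), and the largest rise was 0.65 (Dusp1). The 3 classes had medians of -0.57 (cytoplasmic ERK-specific), -0.26 (nuclear inducible) and 0.25 (JNK and p38). No overlap between the groups was seen for Dusp1, Dusp4, Dusp5, Dusp6, Dusp9, Dusp10 and Dusp16, and for 31.2% of all genes. Because RNA came from whole kidneys, fewer cells of a type and less RNA per cell cannot be told apart in any of these values.

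**Figure D1:**
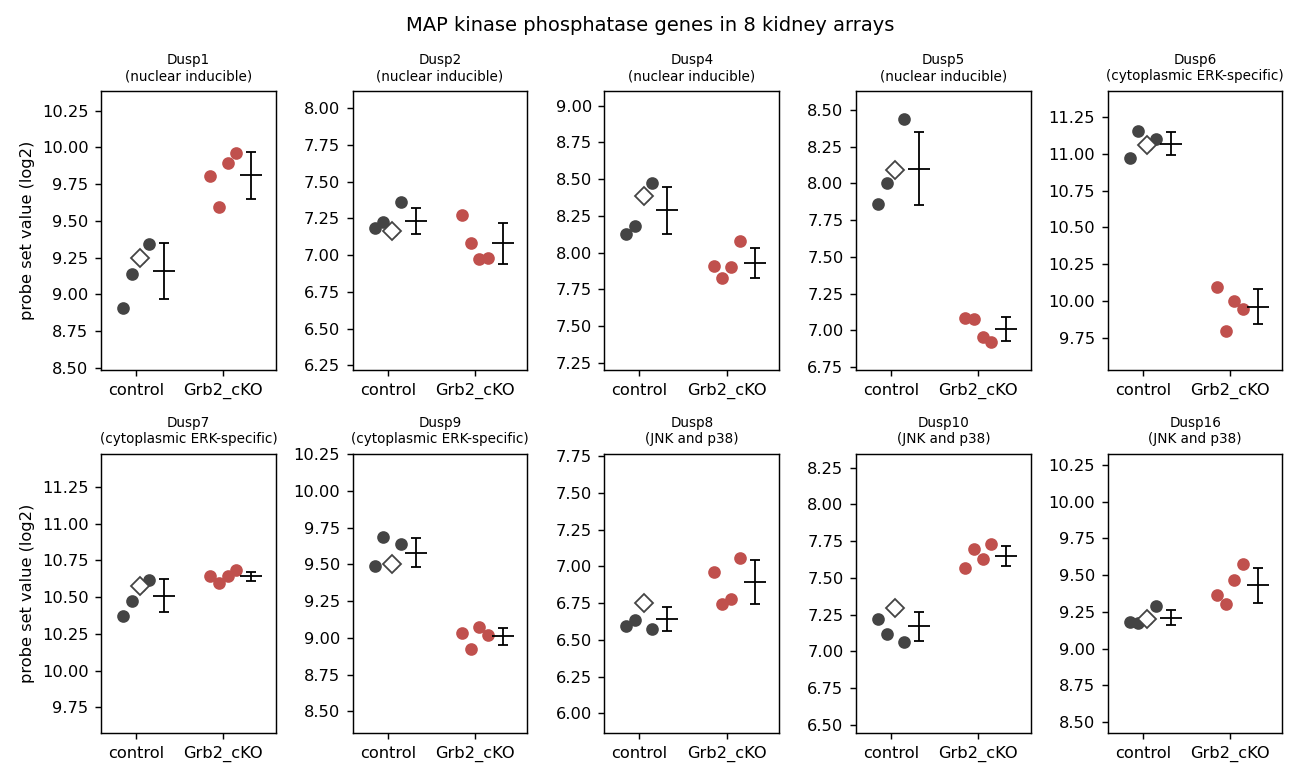
Probe-set values (log2) of the 10 genes in each array, controls in black and Grb2_cKO in red, with the mean and SD of each group beside the points; every panel spans the same range on its axis. The open diamond is control replicate 3, the control with high Y-linked values. Dusp5 and Dusp6 show the widest gaps between the groups, at 0.78 and 0.88.

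Dusp6 encodes a cytoplasmic phosphatase that acts on ERK and is induced by it. Its values were 10.10, 9.80, 9.997 and 9.94 in the Grb2_cKO kidneys and 10.97, 11.16, 11.06 and 11.10 in controls. All 4 Grb2_cKO kidneys lay below all controls, with 0.88 between the nearest values of the groups. Dusp6 fell 2.16-fold (log2 change -1.11, SE 0.08, 95% interval -1.29 to -0.93, adjusted p = 3.72e-05, n = 4 per group), which leaves 46.2% of the control level. Only 72 of the 22180 genes had a more negative log2 change. With the Y-linked covariate the change was -1.10 (SE 0.14, adjusted p = 0.00693). Against control replicate 3 alone it was also -1.10 (adjusted p = 0.0365), which assumes that the lone control varies like the Grb2_cKO arrays.

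Dusp6 had a second, dim probe set that did not show the fall. It read 5.18, 4.69, 4.96 and 5.205 in the Grb2_cKO kidneys and 4.79, 4.96, 5.06 and 4.97 in controls, so the groups overlapped (log2 change 0.06, SE 0.13, adjusted p = 0.81 over all probe sets). Averaging both probe sets gave -0.53 for the gene (adjusted p = 0.0025). The part of the transcript that each probe set reads is not known here and no detection calls were used, so whether its values lie above background was not tested.

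Dusp7 and Dusp9 encode the other phosphatases of the cytoplasmic class. Dusp9 stood at 9.03, 8.92, 9.07 and 9.02 in the Grb2_cKO kidneys and 9.49, 9.69, 9.50 and 9.64 in controls. All 4 Grb2_cKO kidneys were lower, and the nearest values were 0.42 apart. Dusp9 fell 1.48-fold (-0.57, SE 0.07, adjusted p = 0.000459). The gene lies on the X chromosome, and control replicate 3 read within the range of the other controls, at -0.10 from their mean. Its change was -0.49 with the Y-linked covariate (adjusted p = 0.0499), and against control replicate 3 alone it was -0.49 and past the threshold no longer (adjusted p = 0.0825).

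Dusp7 did not pass. It read 10.64, 10.60, 10.64 and 10.68 in the Grb2_cKO kidneys and 10.37, 10.48, 10.58 and 10.62 in controls (0.13, SE 0.07, 95% interval -0.03 to 0.29, adjusted p = 0.217). The groups overlapped, and the Grb2_cKO arrays spanned 0.08, less than the 0.25 of the controls. Its change was 0.06 with the Y-linked covariate (adjusted p = 0.836) and 0.07 against control replicate 3 alone (adjusted p = 0.797). The 3 cytoplasmic genes changed unequally within arrays. Set to a control mean of 0, the difference Dusp6 minus Dusp7 was -1.36 to -1.11 in Grb2_cKO and -0.08 to 0.12 in controls, and Dusp9 minus Dusp7 was -0.75 to -0.64 against -0.14 to 0.14. Dusp6 minus Dusp9 was -0.62 to -0.43 against -0.03 to 0.06.

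Among the nuclear inducible genes, Dusp5 encodes a phosphatase specific for ERK, which it also anchors in the nucleus. It read 7.08, 7.08, 6.96 and 6.92 in the Grb2_cKO kidneys and 7.86, 8.004, 8.09 and 8.43 in controls. Every Grb2_cKO value was lower, by at least 0.78, and the controls spread more widely (SD 0.25) than the Grb2_cKO kidneys (SD 0.08). Dusp5 fell 2.12-fold to 47.1% of the control level (-1.09, SE 0.12, 95% interval -1.34 to -0.83, adjusted p = 0.000211). It passed with the Y-linked covariate (-1.08, adjusted p = 0.021) and against control replicate 3 alone (-1.08, adjusted p = 0.0358).

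Dusp4 encodes a nuclear phosphatase that acts on ERK and JNK. It was at 7.91, 7.83, 7.90 and 8.08 in the Grb2_cKO kidneys and 8.13, 8.18, 8.39 and 8.47 in controls. The groups did not overlap, but their nearest values were only 0.05 apart. Dusp4 fell 1.29-fold (-0.36, SE 0.09, adjusted p = 0.0168). With the Y-linked covariate it stood at -0.46 with a wider error (SE 0.15) and did not pass (adjusted p = 0.119), as against control replicate 3 alone (-0.46, adjusted p = 0.119).

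Dusp1, an immediate early gene whose phosphatase prefers p38 and JNK, moved the other way. It read 9.80, 9.60, 9.89 and 9.96 in the Grb2_cKO kidneys and 8.91, 9.14, 9.24 and 9.34 in controls. All Grb2_cKO values were higher, the nearest by 0.25. Dusp1 rose 1.57-fold (0.65, SE 0.11, 95% interval 0.41 to 0.90, adjusted p = 0.00189). It stood at 0.56 with the Y-linked covariate (SE 0.18, adjusted p = 0.112) and against control replicate 3 alone at 0.57 (adjusted p = 0.116), neither past the threshold. The within-array difference Dusp5 minus Dusp1, set to a control mean of 0, was -1.97 to -1.45 in Grb2_cKO and -0.09 to 0.15 in controls.

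Dusp2, best known from activated lymphocytes, did not pass. Its values were 7.27, 7.08, 6.97 and 6.98 in the Grb2_cKO kidneys and 7.19, 7.23, 7.16 and 7.36 in controls (-0.16, SE 0.09, 95% interval -0.35 to 0.03, adjusted p = 0.213). Grb2_cKO replicate 1 lay among the controls, and the other three lay below them. The change was -0.08 with the Y-linked covariate (adjusted p = 0.812) and -0.09 against control replicate 3 alone (adjusted p = 0.807).

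Of the genes for JNK and p38 phosphatases, Dusp10 rose. It read 7.57, 7.69, 7.63 and 7.73 in the Grb2_cKO kidneys and 7.22, 7.12, 7.30 and 7.06 in controls. The groups were 0.27 apart at their nearest values. The rise was 1.4-fold (0.48, SE 0.07, adjusted p = 0.00122). It stood at 0.35 with the Y-linked covariate (adjusted p = 0.115) and at 0.36 against control replicate 3 alone (adjusted p = 0.152), past the threshold in neither. Control replicate 3 was the highest control for this gene, by 0.16 over the mean of the others.

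Dusp8 and Dusp16 lay just outside the threshold. Dusp16 read 9.36, 9.30, 9.46 and 9.58 in the Grb2_cKO kidneys and 9.18, 9.17, 9.20 and 9.29 in controls (0.22, SE 0.08, adjusted p = 0.0622), and the groups were 0.01 apart. Dusp8 read 6.96, 6.75, 6.78 and 7.06 against 6.59, 6.63, 6.75 and 6.58 (0.25, SE 0.09, adjusted p = 0.0591), with control replicate 3 at the level of the lowest Grb2_cKO kidneys. Without Grb2_cKO replicate 2 both passed, Dusp16 at 0.26 (adjusted p = 0.0386) and Dusp8 at 0.29 (adjusted p = 0.0385). Leaving out any other single array, neither passed in limma (adjusted p 0.0663 to 0.145 for Dusp16 and 0.056 to 0.134 for Dusp8). Under the Y-linked covariate Dusp16 stood at 0.22 (adjusted p = 0.379) and Dusp8 at 0.13 (adjusted p = 0.674), and against control replicate 3 alone they stood at 0.22 (adjusted p = 0.428) and 0.13 (adjusted p = 0.70). The 95% intervals without the covariate, 0.04 to 0.39 and 0.05 to 0.44, are not adjusted for the number of genes.

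**Figure D2:**
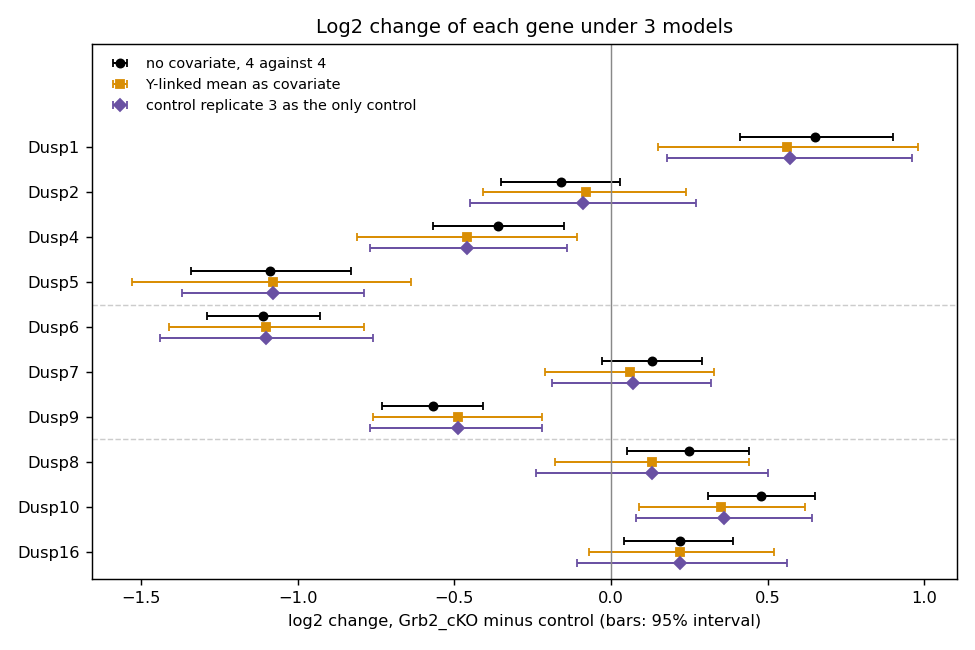
Log2 change of each gene (Grb2_cKO minus control, bars are 95% intervals) without a covariate, with the Y-linked average as a covariate, and with control replicate 3 as the only control; dashed lines separate the 3 classes. Each gene keeps its sign in all 3 models, while most intervals are wider in the 2 models that take up Y-linked expression. Both of these rest mainly on control replicate 3 and are not separate checks.

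With the Y-linked covariate 3 of the 10 genes passed (Dusp5, Dusp6 and Dusp9, all lower), where 5.62% of all genes passed and 2.76% were lower. Against control replicate 3 alone 2 passed (Dusp5 and Dusp6, both lower), where 1.28% of all genes passed and 0.541% were lower. For Dusp5 and Dusp6 the change in these fits was within 0.01 of that without the covariate (-1.08 and -1.10 against -1.09 and -1.11). Both fits rest mainly on control replicate 3, so they are not separate checks. Leaving out the 25% dimmest genes, or raising the threshold to 0.10, brought the members that rose to 4 by adding Dusp8 and Dusp16, where 19.8% and 17.3% of the genes tested were higher. At a threshold of 0.01 Dusp4 was lost and 3 members were lower, against 9.06% of all genes. The arrays can be assigned to the groups in 70 ways. An exact two-sided permutation of them gave p = 0.0286, the smallest this design allows, for the 7 genes whose groups did not overlap. Lack of overlap by itself gives this p, so it only restates that count. It is not adjusted, and the groups did not overlap for 31.2% of all genes. This permutation p was 0.0571 for Dusp7 and Dusp8 and 0.143 for Dusp2.

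**Figure D3:**
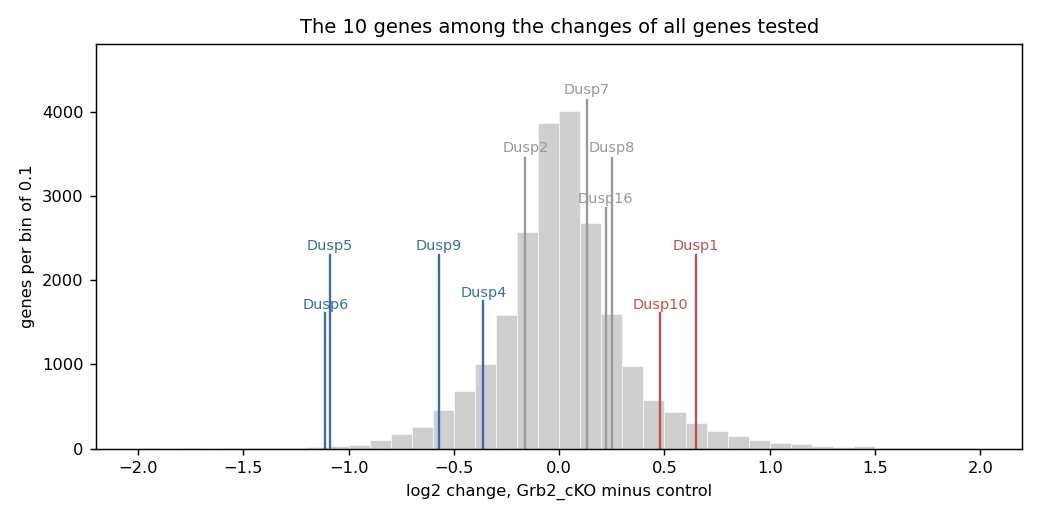
Histogram of the log2 changes of all genes tested (Grb2_cKO minus control, in bins of 0.1; changes beyond 2 are not drawn), with a line for each of the 10 genes, blue where lower, red where higher and grey where not past the threshold. Line heights carry no value. Dusp5 and Dusp6 lie in the far lower tail, where 78 and 72 genes had a more negative change.

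The same arrays were low or high for several members within a group. Grb2_cKO replicate 2 was the lowest Grb2_cKO array for 7 of the 10 genes, and Grb2_cKO replicate 4 the highest for 6. Among controls, replicate 1 was lowest and replicate 4 highest for 6 genes each. The median over all genes was likewise lowest in Grb2_cKO replicate 2 (7.22) and highest in Grb2_cKO replicate 4 (7.32). The Grb2_cKO array medians thus share that order, but the share of all genes with the same order was not counted. Among control medians, replicate 1 was lowest (7.19), but replicate 3 (7.22) and not replicate 4 (7.20) was highest. The spread within a group was 0.08 to 0.36 in Grb2_cKO and 0.11 to 0.58 in controls across the 10 genes.

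For each of the 6 genes past the threshold, the genes with the most similar profile over the 8 arrays were found by the root mean square difference of values centred on each gene's mean. For Dusp6 they were Hk2 (0.071), which encodes a hexokinase, Ftsj3 (0.082) and Spry1 (0.087), a feedback inhibitor of receptor signalling. For Dusp5 they were Hoxb9 (0.054), Mycn (0.073) and Ism1 (0.084). Hoxb9 and Mycn encode transcription factors. Hoxb9 followed Dusp5 also in the high value of control replicate 4, which read 10.30 against 9.88 to 9.98 in the other controls. The choice by profile over these same arrays favours such a match, so it is not an added likeness. The nearest gene to Dusp9 was Cxadr (0.034), to Dusp4 L1cam (0.044), to Dusp1 Pknox2 (0.043) and to Dusp10 Spaca6 (0.055). Since the 8 arrays form 2 groups, genes with a like difference between the groups lie near each other by this measure.

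Genes that respond to ERK outside the Dusp family, a list of 22 of which 21 were measured, had 10 lower, 2 higher and 9 not passing, with a median of -0.31 against 0.0058 for all genes, where 14.3% of all genes were lower and 13.7% higher. The lowest p belonged to Spry1 (-1.23, SE 0.08, adjusted p = 3.22e-05), Myb (-1.02, SE 0.08, adjusted p = 4.26e-05) and Etv4 (-1.49, SE 0.14, adjusted p = 0.000114). Each of these genes is also on the list of ureteric tip markers given below, so they are not separate from it. The immediate early genes Egr1 and Fos, named here after their values were seen, stood at -0.03 (adjusted p = 0.923) and 0.0 (adjusted p = 0.984). With the Y-linked covariate, 6 of the list's 12 changed genes passed in the same direction, and the median was -0.35.

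In the JNK and p38 list, 6 of 15 measured genes rose, none fell and 9 did not pass. The median was 0.25, where 13.7% of all genes were higher. Some of the list are response genes, while others, such as Mapkapk2, Mknk1, Elk1 and Atf2, encode proteins that MAP kinases phosphorylate. Mknk1 and Elk1 are among the 6 that rose, so the count is not one of transcriptional responses alone. Jun, a target of JNK, rose by 0.68 (SE 0.08, adjusted p = 0.000402), Zfp36, whose product destabilises messenger RNAs, by 0.84 (SE 0.12, adjusted p = 0.000881) and Ddit3, a stress-induced transcription factor gene, by 0.29 (SE 0.07, adjusted p = 0.0109). Of the 6, only Jun passed with the Y-linked covariate (0.62, adjusted p = 0.0406), and the median of the list was 0.10.

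The kinases that these phosphatases act on included genes called in both directions, of which 1 passed with the Y-linked covariate. Among 12 measured MAP kinase genes, 1 was higher, 4 were lower and 7 did not pass, with a median of -0.11, where 28.1% of all genes passed. Mapk12, a p38 gene, fell by 0.88 (SE 0.09, adjusted p = 0.000158), Mapk10, a JNK gene, rose by 0.64 (SE 0.08, adjusted p = 0.00042) and Mapk8, also a JNK gene, fell by 0.36 (SE 0.08, adjusted p = 0.00823). With the covariate Mapk12 passed (-0.83, adjusted p = 0.0208), while Mapk10 at 0.47 (adjusted p = 0.0506) and Mapk8 at -0.24 (adjusted p = 0.336) did not. Of 6 MAP kinase kinase genes 1 fell, Map2k1 (-0.29, SE 0.10, adjusted p = 0.0476), and the nearest of the others were Map2k5 at -0.13 (adjusted p = 0.334) and Map2k2 at -0.11 (adjusted p = 0.389). Map2k1 did not pass with the covariate (-0.41, adjusted p = 0.165).

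Dual-specificity phosphatases outside the MAP kinase class, many of which have other or less settled substrates, had 2 of 16 measured genes higher, 2 lower and 12 not passing, with a median of 0.01. These 4 of 16 are close to the 28.1% of all genes that passed. Dusp23 rose by 0.64 (SE 0.12, adjusted p = 0.00329), Dusp15 rose by 0.57 (SE 0.15, adjusted p = 0.0164) and Dusp12 fell by 0.34 (SE 0.08, adjusted p = 0.013). With the Y-linked covariate none of these 4 passed. Other phosphatases that act on MAP kinases had 6 of 13 genes lower, none higher and 7 not passing, with a median of -0.21, where 14.3% of all genes were lower. Subunits of protein phosphatase 2A led this list, with Ppp2r1b at -0.33 (SE 0.07, adjusted p = 0.00446), Ppp2cb at -0.31 (SE 0.08, adjusted p = 0.0185) and Ppp2r2a at -0.34 (SE 0.10, adjusted p = 0.0296). None of the 6 passed with the covariate.

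**Figure D4:**
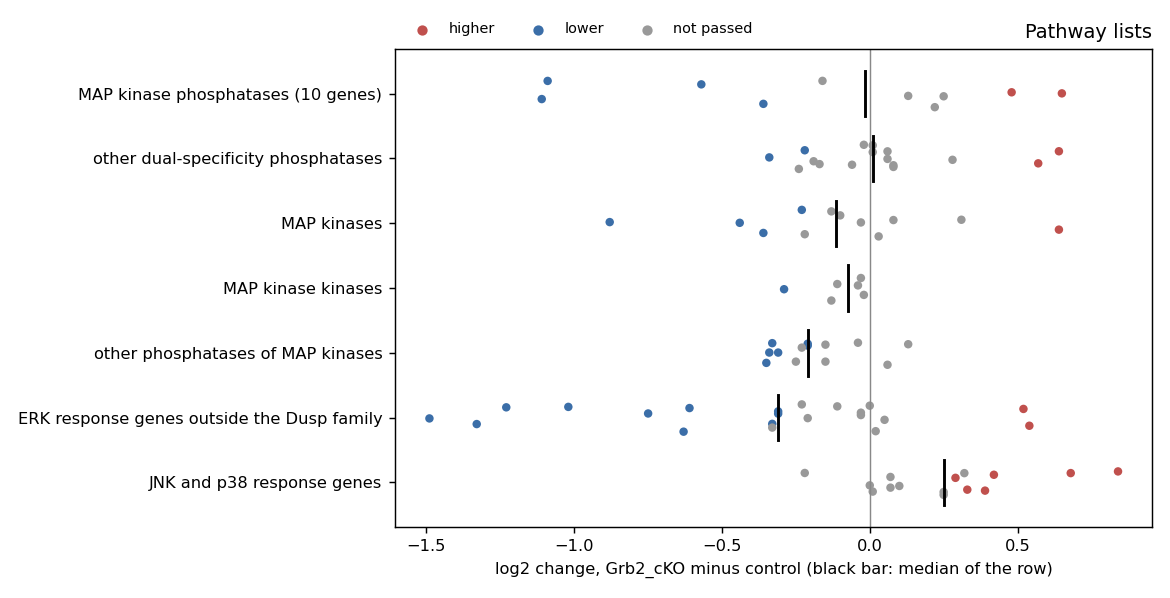
Log2 change (Grb2_cKO minus control) of each measured gene in the 10 phosphatase genes and 6 pathway lists; each point is a gene, coloured by whether it passed the threshold, and the black bar is the median of the row. The list of ERK response genes reaches furthest down (median -0.31), and the JNK and p38 list has its median at 0.25 (0.10 with the Y-linked covariate, which is not drawn).

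Cell type markers moved with both directions of change, where 14.3% of all genes were lower and 13.7% higher. Beside the falls of Dusp4, Dusp5, Dusp6 and Dusp9, 12 of 15 measured ureteric tip genes were lower and 1 higher, with a list mean of 7.59 to 7.81 in Grb2_cKO and 8.66 to 8.91 in controls. Of these tip genes 4 are also on the ERK response list. Of 15 ureteric epithelium genes 10 were lower and 1 higher (8.49 to 8.70 against 9.14 to 9.26), and of 14 nephron progenitor genes 10 were lower and 1 higher (9.10 to 9.52 against 10.08 to 10.27). All 12 early nephron genes were lower (8.80 to 8.87 against 9.38 to 9.57). Six2 and Calb1 differed by over 1 log2 unit between Grb2_cKO replicates 1 and 2 (10.22 and 10.14, 8.75 and 8.55) and replicates 3 and 4 (8.37 and 8.44, 7.40 and 7.18). Dusp5 and Dusp6 varied by 0.16 and 0.30 over the same 4 kidneys. Six2 and Calb1 had the widest Grb2_cKO spread of their lists (SD 1.02 and 0.79), and Eya1 also spread widely (0.71). Other genes of these lists, such as Sall1 (0.09) and Emx2 (0.08), were about as tight as Dusp5 (0.08) and Dusp6 (0.12). Beside the rises of Dusp1 and Dusp10, 12 of 14 stroma genes were higher and none lower (10.97 to 11.13 against 10.33 to 10.53), as were 9 of 15 endothelium genes (9.70 to 9.96 against 9.42 to 9.56) and 11 of 14 macrophage and leukocyte genes (7.98 to 8.37 against 7.21 to 7.37). Of 8 podocyte genes 7 were higher (9.08 to 9.72 against 8.64 to 8.75), and of 7 erythroid genes 5 (7.24 to 7.86 against 6.35 to 6.89). Of 18 immediate early genes 8 were higher and 1 lower (7.87 to 8.10 against 7.64 to 7.78). This list shares 6 genes with the ERK response list and 4 with the JNK and p38 list, so their counts are not separate. With the Y-linked covariate, the called genes that passed in the same direction were 11 of 13 for the ureteric tip, 5 of 11 for the ureteric epithelium, 6 of 11 for nephron progenitors and 5 of 12 for the early nephron. They were 6 of 12 for stroma, 0 of 9 for endothelium, 6 of 11 for macrophages and leukocytes, 1 of 7 for podocytes, 1 of 5 for erythroid cells and 2 of 9 for immediate early genes. The part of these cell types and of the immediate early response in the changes of the phosphatase genes was not tested.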

How the data were processed

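The 8 samples are 1-colour arrays of biotin-labelled RNA, 4 per group. The authors deposited log2 probe-set values made, per the submitters' processing notes, with the Transcriptome Analysis Console; the sources used here give no version, background correction or normalization. That the scale is log2 follows from the range of values, 1.25 to 14.08. Nothing was normalized again. Of 41345 probe sets, 23521 had 1 gene symbol in the platform annotation and 1814 several, which were not named; 23328 symbols were updated through Entrez identifiers to GRCm38.p6 RefSeq. Per gene, the probe set with the highest mean over the 8 arrays was kept, leaving 22180 genes.

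All 8 arrays entered 1 linear model in limma 3.58.1 (R 4.3.3) with empirical Bayes moderation and no covariate. Adjusted p-values in the text come from it unless another fit is named. The labels give 1 embryo per array, and p-values measure spread between littermates. Number of arrays limits the precision; no detection calls or batch records were used. Replicate numbers follow record order and pair nothing. The members and gene lists were chosen with earlier results of these data known. Genes named are the members, Grb2, sex-linked and marker genes, up to 3 genes of smallest p per pathway list and the nearest profiles. The model was tested on simulated data. Promoter sequences come from RefSeq; protein sequences were not used here.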

Additional observations from a re-analysis of the deposited data

How the results depend on the processing

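Alternatives were array weights, quantile normalization, array medians set equal, averaging probe sets, the Y-linked covariate, a fit against control replicate 3 alone, and the removal of each array in turn, 14 that can move a log2 change, and each of the 10 genes kept its sign in them. The other 5 (thresholds of 0.01 and 0.10, a robust spread with a trend, removal of the 25% dimmest genes, adjustment over all probe sets) leave the log2 changes as they are and bear only on the calls. The second Dusp6 probe set, taken alone, had the opposite sign (0.06). Control replicate 3 is in all of these fits but 1, and signs fixed by groups that do not overlap carry little weight. Over all genes, 6227 passed, against 1246 with the Y-linked covariate, 285 with control replicate 3 alone and 3809 at a threshold of 0.01. The 2 members that rose became 4 without the dimmest genes and at a threshold of 0.10, and 0 with the covariate or with control replicate 3 alone; leaving out single arrays gave 2 to 4. The 4 that fell became 2 with control replicate 3 alone, and Dusp4 missed the threshold of 0.01 (adjusted p = 0.0168). Leaving out single arrays, none of the 6 called genes lost its call, with log2 changes of -1.16 to -1.06 for Dusp6, -1.17 to -0.97 for Dusp5 and -0.42 to -0.30 for Dusp4 (adjusted p up to 0.0486). Dusp16 passed after quantile normalization (0.25, adjusted p = 0.0279), without the dimmest genes, with a trended and robust spread and with array weights. Dusp8 passed without the dimmest genes. With array medians set equal neither passed (Dusp16 at 0.15, adjusted p = 0.15, and Dusp8 at 0.18, adjusted p = 0.132). The cause of these differences was not tested. No paired analysis was possible because the labels give no replicate numbers shared between the groups.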
